A study of Mus musculus with 12 samples.

Results

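Insulin and IGF receptor signalling was followed in mouse mpkCCDc11 cells through 7 genes: Irs1, Irs2, Insr, Igf1r, Pik3r1, Foxo1 and Foxo3. They were found by gene symbol among the 25208 genes of the deposited table, and all 7 were among the 16508 genes that passed the filter on low counts. The set was chosen by pathway and by the measured CPM of Irs2, which was already known to be higher with dDAVP and lower with Ctnnb1 siRNA. The pairwise differences of Irs2, and its interaction of siRNA and dDAVP, are therefore given as a description, without a test.

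The mpkCCDc11 line is an immortalised clonal line of mouse kidney cortical collecting duct cells, so all groups share 1 clone. The genotype is labelled as a Ctnnb1 knockdown in the siRNA groups and as WT in the control groups. The 4 conditions, of 3 libraries each, were Ctnnb1 siRNA with dDAVP, Ctnnb1 siRNA with vehicle, control siRNA with dDAVP, and control siRNA with vehicle. The siRNA against Ctnnb1 targets the messenger RNA of beta-catenin, and dDAVP at 1 nM, given for 24 h to the basolateral side, activates the vasopressin V2 receptor, which raises cAMP. All groups were grown on permeable supports for 4 days in medium that held insulin at 5 µg/mL and 2% fetal bovine serum, and all were then kept without serum and hormones for 24 h before the agonist or vehicle. The labels do not say that replicates were separate cultures, so p-values measure only the spread between these libraries, which may be technical.

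Insulin and the insulin-like growth factors bind receptor tyrosine kinases, which phosphorylate the insulin receptor substrate (IRS) proteins. These recruit phosphoinositide 3-kinase (PI3K) through its regulatory subunit, and the lipid that PI3K makes activates AKT, which phosphorylates FoxO transcription factors and keeps them out of the nucleus. In liver, FoxO factors and cAMP-activated CREB are both known to raise transcription of Irs2, and in the collecting duct insulin is known for stimulating sodium uptake through the epithelial sodium channel.

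The libraries held 32997720 to 48935473 counted reads, and the 7 genes drew 514 to 7355 reads each per library. Ctnnb1 itself had 335, 342 and 326 CPM (read counts relative to library size, scaled between libraries by the TMM method) with Ctnnb1 siRNA and dDAVP, and 334, 306 and 309 CPM with Ctnnb1 siRNA and vehicle. It had 776, 811 and 786 CPM with control siRNA and dDAVP, and 766, 745 and 761 CPM with control siRNA and vehicle. Ctnnb1 thus fell by 1.24 on the log2 scale with dDAVP and by 1.26 with vehicle, a partial knockdown. Of the collecting duct markers, Krt8, Krt18, Cdh1, Gata3 and the V2 receptor gene Avpr2 were at 23.4 TPM or more in every library (a level per transcript length and library size), and Scnn1a and Hsd11b2 were at 10.0 TPM or more. The other 8 were lower in most or all libraries. Aqp2, the water channel that vasopressin induces, averaged 4.94 TPM with Ctnnb1 siRNA and dDAVP and 0.077 TPM with Ctnnb1 siRNA and vehicle, and 8.63 TPM with control siRNA and dDAVP and 0.020 TPM with control siRNA and vehicle. Aqp3, Scnn1b, Scnn1g, Nr3c2 and Fxyd4 lay between 0.030 and 3.32 TPM, and Aqp4 and Elf5 at or below 0.13 TPM. The summed level of the 15 principal cell markers was 3491 to 3545 TPM with Ctnnb1 siRNA and dDAVP and 2981 to 3033 TPM with Ctnnb1 siRNA and vehicle. It was 3375 to 3463 TPM with control siRNA and dDAVP and 2977 to 3075 TPM with control siRNA and vehicle, so it moved with dDAVP. The keratins Krt8 and Krt18 made up most of it. Without them the other 13 markers summed to 299 to 384 TPM with Ctnnb1 siRNA and dDAVP, 328 to 349 TPM with Ctnnb1 siRNA and vehicle, 320.1 to 408 TPM with control siRNA and dDAVP and 348 to 368 TPM with control siRNA and vehicle, with overlap between dDAVP and vehicle. Scnn1a, Hsd11b2 and Cdh1 had lower means with dDAVP than with vehicle for either siRNA. The part of these markers in the results below was not tested. Intercalated cell markers Atp6v1b1 and Car2 were present at 54.0 TPM or more, and Slc4a1 was at or below 0.06 TPM. The leukocyte gene Ptprc, the endothelial gene Pecam1 and the fibroblast gene Col1a1 were at or below 0.66 TPM. The macrophage gene Cd68 was at 3.85 to 8.03 TPM and the proximal tubule gene Lrp2 at 8.25 to 13.2 TPM. Cubn and Slc5a2, also proximal tubule genes, were at or below 0.15 TPM. In bulk RNA, fewer cells of a type and less RNA per cell cannot be told apart. Replicate 3 of Ctnnb1 siRNA with dDAVP stood apart from its mates: its chi-square per degree of freedom against them was 42.8 and 69.4, against 5.34 to 25.4 for the other replicate pairs.

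The start regions of Irs2 and Irs1, the genes with the largest differences among the 7, are shown for the letters around their start sites. They come from RefSeq (GRCm38.p6) and span 250 bases before to 50 bases after the start. Irs2 (gene ID 384783) lies on the minus strand of chromosome 8, from 10984681 to 11008929, and its window is chr8:11008880-11009179. Irs1 (gene ID 16367) lies on the minus strand of chromosome 1, from 82233105 to 82291439, and its window is chr1:82291390-82291689. Both are written 5′ to 3′ on the gene's strand, with capitals on every match to the motifs searched.
Irs2: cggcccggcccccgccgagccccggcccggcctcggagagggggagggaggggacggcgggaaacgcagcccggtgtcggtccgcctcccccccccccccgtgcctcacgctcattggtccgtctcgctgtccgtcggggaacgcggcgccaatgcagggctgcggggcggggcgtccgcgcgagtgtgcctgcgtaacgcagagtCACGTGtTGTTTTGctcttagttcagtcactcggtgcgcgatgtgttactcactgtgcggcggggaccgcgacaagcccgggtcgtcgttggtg
Irs1: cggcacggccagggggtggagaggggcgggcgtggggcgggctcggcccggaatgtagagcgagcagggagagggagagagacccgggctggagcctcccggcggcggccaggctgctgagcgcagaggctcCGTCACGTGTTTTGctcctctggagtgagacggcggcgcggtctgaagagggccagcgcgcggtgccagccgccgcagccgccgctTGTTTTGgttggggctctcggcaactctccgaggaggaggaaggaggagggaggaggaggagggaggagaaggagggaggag
The motifs, searched on both strands, were the short cAMP response element site TGACG, its longer form TGACGTC, the FoxO site GTAAACA, the insulin response element core CAAAACA, the TCF/LEF site ATCAAAG and, added after the sequences had been read, the E-box CACGTG. In Irs2 the insulin element, read as TGTTTTG, begins 37 bases before the start, and the E-box begins 44 bases before it, 1 base away from the element. In Irs1 insulin elements begin 111 and 32 bases before the start, an E-box 115 bases before, and a TGACG match 118 bases before. The Irs1 E-box shares 2 bases with the nearer of these elements and 2 with the TGACG match. Of 32544 promoter windows, 6.32% held CAAAACA, 7.17% held CACGTG, 20.9% held TGACG, 3.22% TGACGTC, 3.66% GTAAACA and 3.73% ATCAAAG. The Irs2 window held no TGACG. Neither window held the longer cAMP element, the FoxO site or the TCF/LEF site, which says only that these letters are not in these windows. Among the other members, Foxo3 and the internal Pik3r1 start held TGACG, beginning 64 and 35 bases before their starts, while the windows of Foxo1, Igf1r and the upstream Pik3r1 start held no match. A match describes the letters only. Insr had no window in the table.

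Levels per transcript length ranked Foxo3 first among the 7 genes and Irs1 last. Foxo3, a FoxO transcription factor, averaged 43.6 TPM over the 12 libraries, with a range of 36.2 to 48.4 TPM. The IGF receptor gene Igf1r averaged 23.9 TPM (18.1 to 29.3) and the insulin receptor gene Insr 15.7 TPM (13.1 to 19.3). Irs2 averaged 13.4 TPM (9.40 to 20.1), Foxo1 11.8 TPM (8.0 to 16.5), the PI3K regulatory subunit gene Pik3r1 8.06 TPM (6.87 to 10.2) and Irs1 3.42 TPM (2.25 to 4.48). Foxo3 over Igf1r, Igf1r over Insr, Foxo1 over Pik3r1 and Pik3r1 over Irs1 held in 12 of 12 libraries. Insr lay above Irs2 in 9 of 12 libraries and Irs2 above Foxo1 in 10 of 12, so these neighbours were not separated throughout.

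**Figure D1:**
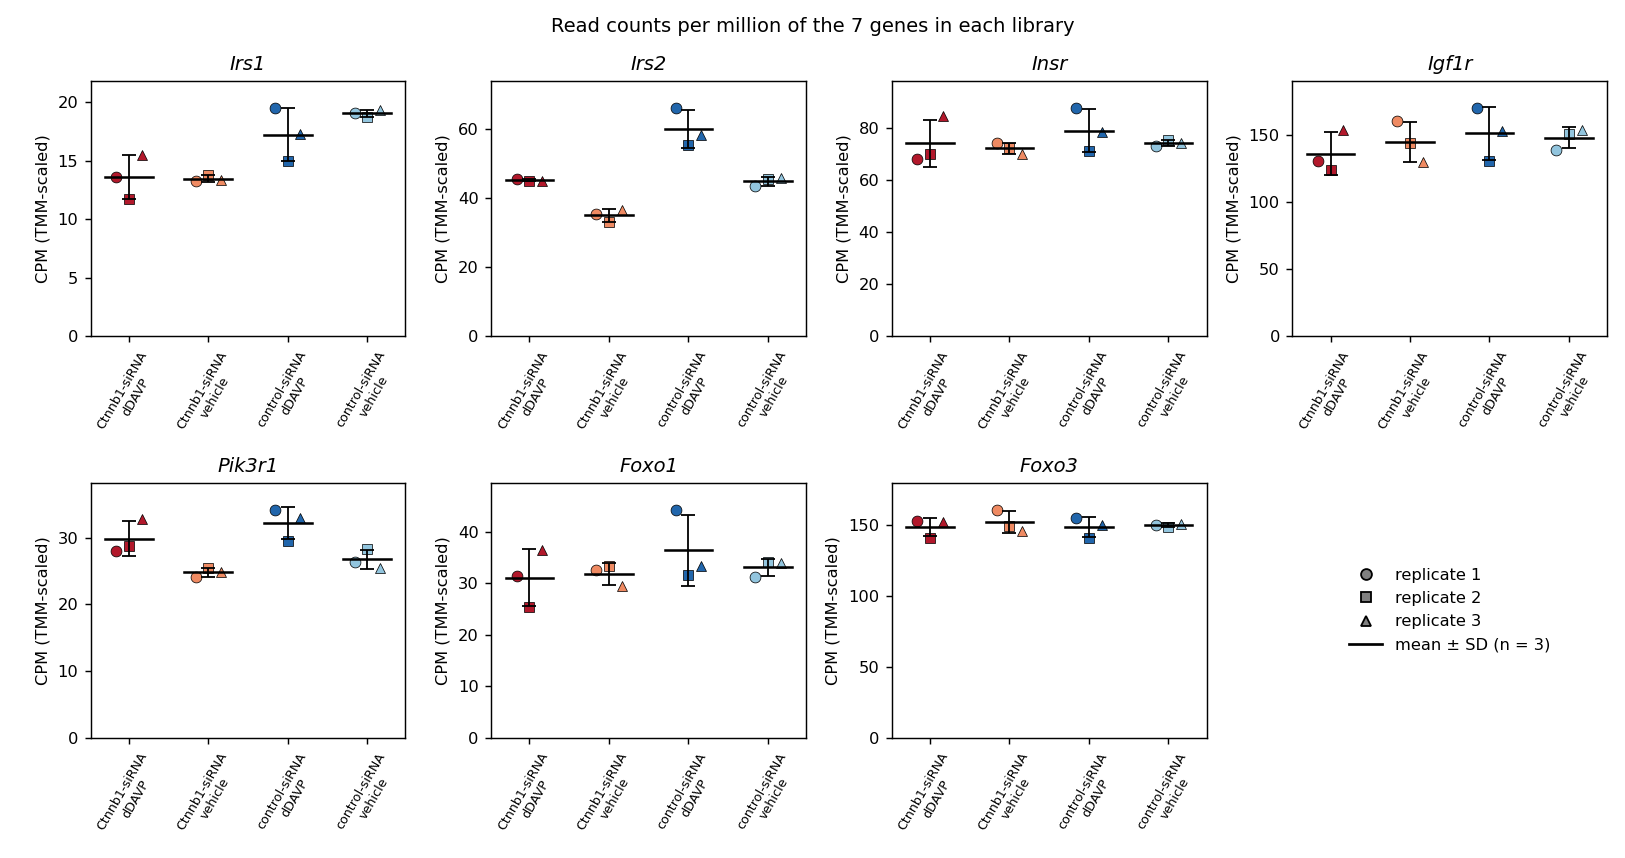
CPM (TMM-scaled, vertical axis from 0) of the 7 genes in the 12 libraries, by siRNA and treatment; points are libraries, and bars show the mean and SD of 3. Irs2 is highest with control siRNA and dDAVP (59.9 CPM on average) and lowest with Ctnnb1 siRNA and vehicle (35.0 CPM), while Foxo3 averages 148 to 152 CPM in all 4 groups.

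Insr encodes the insulin receptor (gene ID 16337, minus strand of chromosome 8, 3150922 to 3279649). Its 3 libraries spanned 67.8 to 84.4 CPM with Ctnnb1 siRNA and dDAVP, 69.97 to 74.1 CPM with Ctnnb1 siRNA and vehicle, 70.9 to 87.4 CPM with control siRNA and dDAVP, and 72.9 to 75.4 CPM with control siRNA and vehicle. The ranges overlapped in all 4 comparisons. By dDAVP its log2 fold change was 0.040 with Ctnnb1 siRNA (95% interval -0.12 to 0.20, edgeR adjusted p = 0.896) and 0.090 with control siRNA (-0.068 to 0.25, adjusted p = 0.675). By siRNA it was -0.091 with dDAVP (-0.25 to 0.068, adjusted p = 0.705) and -0.041 with vehicle (-0.20 to 0.12, adjusted p = 0.970).

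Igf1r encodes the receptor for IGF1 (gene ID 16001, plus strand of chromosome 7, 67952257 to 68233668). It ran from 123 to 154 CPM with Ctnnb1 siRNA and dDAVP, 129.8 to 159.8 CPM with Ctnnb1 siRNA and vehicle, 131 to 169.6 CPM with control siRNA and dDAVP, and 139 to 153 CPM with control siRNA and vehicle. All 4 ranges overlapped, and the lowest edgeR adjusted p of its 4 comparisons was 0.600, for Ctnnb1 against control siRNA with dDAVP (log2 fold change -0.15, 95% interval -0.35 to 0.047). Igf1r made up 59.0% ± 1.05, 61.1% ± 1.81, 60.0% ± 0.762 and 61.0% ± 1.02 of the summed Insr and Igf1r TPM in the same group order (SD, n = 3 each).

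Irs2 encodes an IRS docking protein. It had 45.5, 44.8 and 45.1 CPM with Ctnnb1 siRNA and dDAVP, and 35.4, 32.9 and 36.5 CPM with Ctnnb1 siRNA and vehicle. With control siRNA it had 66.0, 55.3 and 58.3 CPM with dDAVP and 43.4, 45.5 and 45.8 CPM with vehicle. Every dDAVP library lay above every vehicle library of the same siRNA, and every Ctnnb1-siRNA library lay below every control-siRNA library of the same treatment. The Ctnnb1-siRNA dDAVP and control-siRNA vehicle libraries, at 45.1 ± 0.324 and 44.9 ± 1.31 CPM (SD, n = 3 each), overlapped. Separation of this kind, higher with dDAVP, was seen for 9.54% of all tested genes after Ctnnb1 siRNA and 10.2% with control siRNA. Separation lower with Ctnnb1 siRNA was seen for 6.02% with dDAVP and 9.26% with vehicle, and nothing is read from this for Irs2.

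As a description, dDAVP went with 1.29-fold more Irs2 after Ctnnb1 siRNA (log2 fold change 0.37, SE 0.066) and 1.33-fold more with control siRNA (0.42, SE 0.065). Ctnnb1 siRNA went with 1.33-fold less Irs2 with dDAVP (log2 fold change -0.41, SE 0.065) and 1.28-fold less with vehicle (-0.36, SE 0.066). Over the alternative settings these log2 fold changes ran from 0.29 to 0.40, 0.34 to 0.47, -0.49 to -0.33 and -0.44 to -0.32, in the same order. The interaction is the dDAVP change after Ctnnb1 siRNA minus that with control siRNA. For Irs2 it comes from the same values on which the gene was chosen, so it too is a description. It was -0.047 (SE 0.0928, 95% interval -0.23 to 0.13), which does not show that the responses were alike. The opposite-strand gene 9530052E02Rik shares 162 exonic bases with Irs2, and the labels do not say whether counting used the strand, but it drew 0 to 4 reads per library, against 1446 to 2768 for Irs2.

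Irs1 encodes an IRS docking protein of the same family. It had 13.6, 11.7 and 15.5 CPM with Ctnnb1 siRNA and dDAVP, and 13.2, 13.8 and 13.3 CPM with Ctnnb1 siRNA and vehicle. With control siRNA it had 19.5, 15.0 and 17.2 CPM with dDAVP and 19.1, 18.7 and 19.3 CPM with vehicle. With vehicle the siRNA groups did not overlap (9.26% of tested genes were separated and lower, and 8.95% separated and higher), and with dDAVP they did, since replicate 3 of Ctnnb1 siRNA lay above replicate 2 of control siRNA.

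Irs1 fell with Ctnnb1 siRNA in the vehicle cells, 1.42-fold lower, in 3 of 3 libraries (log2 fold change -0.50, SE 0.103, edgeR adjusted p = 0.0471). It was the only call among the 6 genes other than Irs2 in that comparison, in which 0.43% of all tested genes were called in either direction and 0.224% lower. The call sat close to the threshold. The adjusted p ran from 0.00142 to 0.225 over the 22 alternatives, and 10 of them kept the call. It was lost without any 1 of the 6 vehicle libraries: adjusted p = 0.140, 0.163 and 0.225 without control-siRNA replicates 1, 2 and 3, and 0.208, 0.158 and 0.190 without Ctnnb1-siRNA replicates 1, 2 and 3. It was also lost without control-siRNA dDAVP replicate 3 (0.0806) or Ctnnb1-siRNA dDAVP replicate 1 (0.0735). The log2 fold change kept its sign throughout, from -0.57 to -0.45. Shares of library composition were separated in the same comparison. Small structural RNAs took 2.13 to 2.31% of reads with Ctnnb1 siRNA and vehicle and 1.33 to 1.96% with control siRNA and vehicle, and the nuclear RNAs Malat1 and Neat1 took 0.824 to 0.890% with Ctnnb1 siRNA and vehicle and 0.799 to 0.801% with control siRNA and vehicle. Their part in the Irs1 and Irs2 differences was not tested. With dDAVP, both shares overlapped between the siRNA groups.

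With dDAVP the siRNA difference in Irs1 was -0.34 (SE 0.103, 95% interval -0.54 to -0.14, edgeR adjusted p = 0.198), not called. Without Ctnnb1-siRNA dDAVP replicate 3, the library that stood apart, it was -0.44 with an adjusted p of 0.0491, and voom called it as well (0.0363). These were the only 2 calls among the 22 alternatives. Without control-siRNA dDAVP replicate 1 it was -0.24 (edgeR adjusted p = 0.622), and without Ctnnb1-siRNA dDAVP replicate 2 it was -0.25 (0.515). By dDAVP, Irs1 had a log2 fold change of 0.017 with Ctnnb1 siRNA (adjusted p = 0.969) and -0.14 with control siRNA (adjusted p = 0.575). The interaction was 0.16 (SE 0.146, adjusted p = 0.929). The annotation places a protein-coding gene, Gm9747, over 2822 exonic bases of Irs1 on the opposite strand, which is not analysed here.

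Irs2 made up 81.8% ± 2.02 and 77.8% ± 1.31 of the summed Irs1 and Irs2 TPM with Ctnnb1 siRNA and dDAVP or vehicle (SD, n = 3 each). With control siRNA its share was 82.5% ± 0.733 with dDAVP and 76.1% ± 0.640 with vehicle. In both siRNA conditions the dDAVP libraries lay above the vehicle libraries. From CPM, which ignores transcript length, the shares were 76.9% and 72.2% with Ctnnb1 siRNA and 77.7% and 70.2% with control siRNA. Because Irs2 was chosen for its dDAVP difference, the share is a description.

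**Figure D2:**
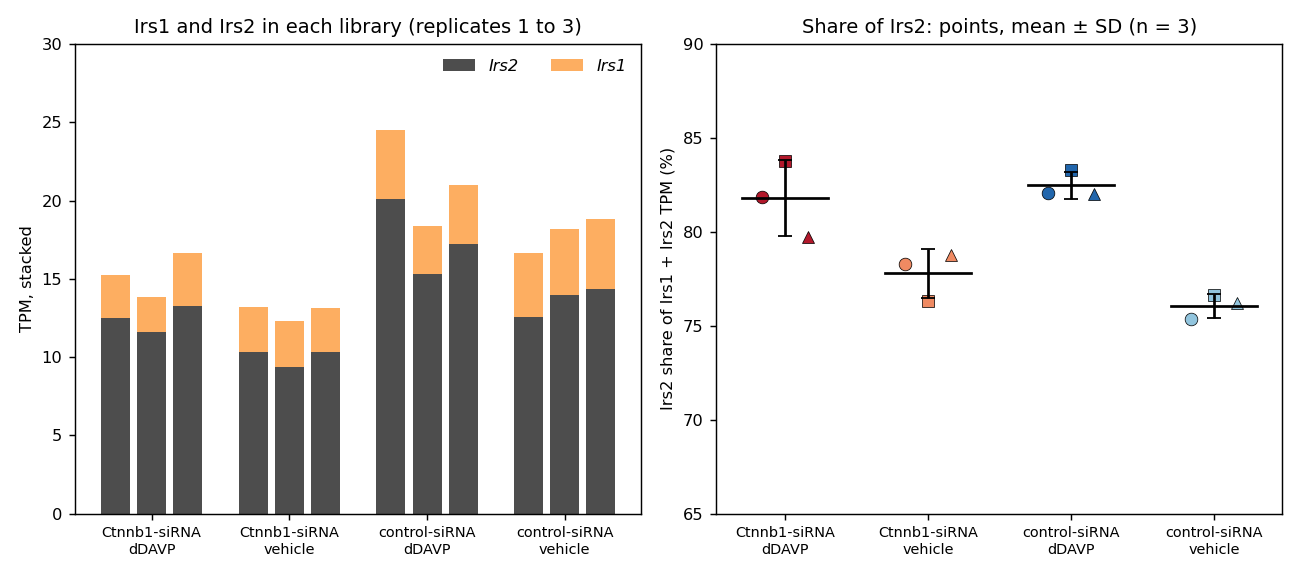
Left, stacked TPM of Irs2 and Irs1 in each library; right, share (%) of Irs2 in their sum by group, with points for libraries and the mean and SD of 3, on an axis that does not start at 0. The dDAVP libraries lie above the vehicle libraries in each siRNA condition.

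Pik3r1 encodes the p85 alpha regulatory subunit of PI3K (gene ID 18708, minus strand of chromosome 13, 101680761 to 101768217). It had 28.0, 28.7 and 32.8 CPM with Ctnnb1 siRNA and dDAVP, and 24.1, 25.4 and 24.9 CPM with Ctnnb1 siRNA and vehicle. With control siRNA it had 34.1, 29.5 and 33.0 CPM with dDAVP and 26.4, 28.3 and 25.5 CPM with vehicle. All 3 dDAVP libraries lay above all 3 vehicle libraries with either siRNA; of all tested genes, 9.54% did so after Ctnnb1 siRNA and 10.2% with control siRNA. The dDAVP differences were 0.27 (SE 0.077, 95% interval 0.12 to 0.42) in both siRNA conditions, with edgeR adjusted p = 0.0867 after Ctnnb1 siRNA and 0.0792 with control siRNA, so neither was called. DESeq2 called both (0.0359 and 0.0275), and voom called the one with control siRNA (0.00589). With control siRNA, edgeR also called it without control-siRNA dDAVP replicate 2 (0.0375) or without Ctnnb1-siRNA dDAVP replicate 3 (0.0238). In all, 1 of 22 alternatives called the difference after Ctnnb1 siRNA and 4 of 22 the one with control siRNA. The limma fits on log2 of TPM plus 1 gave adjusted p = 0.517 and 0.415, and voom gave 0.113 after Ctnnb1 siRNA. By siRNA the differences were -0.11 with dDAVP (adjusted p = 0.612), where the groups overlapped, and -0.11 with vehicle (0.823), where the Ctnnb1-siRNA libraries all lay below the control-siRNA libraries, as for 9.26% of tested genes. The nearest of these libraries were at 25.4 and 25.5 CPM. The interaction was -0.0034 (SE 0.109, 95% interval -0.22 to 0.21, edgeR adjusted p = 0.999).

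Foxo1 encodes a FoxO transcription factor (gene ID 56458, plus strand of chromosome 3, 52268337 to 52350109). It ran from 25.3 to 36.4 CPM with Ctnnb1 siRNA and dDAVP, 29.4 to 33.4 CPM with Ctnnb1 siRNA and vehicle, 31.5 to 44.2 CPM with control siRNA and dDAVP and 31.2 to 34.2 CPM with control siRNA and vehicle. All groups overlapped, and its lowest edgeR adjusted p was 0.543, for Ctnnb1 against control siRNA with dDAVP (log2 fold change -0.23, 95% interval -0.48 to 0.031). An antisense gene, Gm20402, shares 674 exonic bases with Foxo1 and is not analysed here.

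Foxo3 encodes a related FoxO factor (gene ID 56484, minus strand of chromosome 10, 42181845 to 42276695). Its group means were 148 CPM with Ctnnb1 siRNA and dDAVP, 152 CPM with Ctnnb1 siRNA and vehicle, 148 CPM with control siRNA and dDAVP and 149.7 CPM with control siRNA and vehicle. The largest group mean exceeded the smallest by 1.02-fold, and the lowest edgeR adjusted p was 0.868. Its 95% intervals for the 4 differences all lay between -0.14 and 0.12 on the log2 scale. Foxo3 made up 79.8%, 79.7%, 77.1% and 78.8% of the summed Foxo1 and Foxo3 TPM in the same group order.

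**Figure D3:**
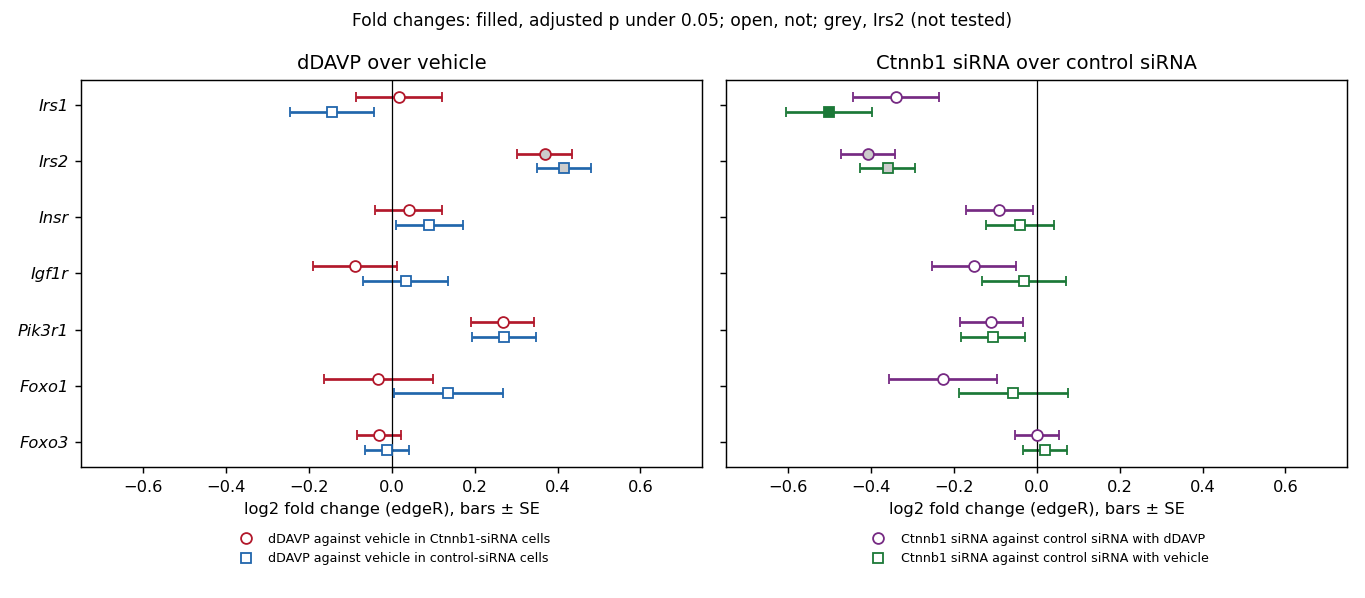
Log2 fold change of the 7 genes for dDAVP and for Ctnnb1 siRNA (horizontal axis), with bars of ± 1 SE; filled points were called, open points were not, and grey Irs2 points carry no test. Irs2 lies above 0 for dDAVP and below 0 for Ctnnb1 siRNA with either partner condition, and Irs1 lies at -0.50 for Ctnnb1 siRNA with vehicle.

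Counted over the 6 genes other than Irs2, edgeR called 0 for dDAVP after Ctnnb1 siRNA, where it called 2.78% of all tested genes, and 0 for dDAVP with control siRNA, where it called 2.83%. For Ctnnb1 siRNA it called 0 with dDAVP, against 0.267% of all tested genes, and Irs1 with vehicle. At an unadjusted p under 0.05 the 6 genes gave 1, 1, 1 and 1 in these comparisons, in the order just given, against 13.7%, 14.6%, 11.7% and 8.09% of all tested genes. DESeq2 called 1, 1, 0 and 1 of the 6, beside 737, 744, 259 and 169 of all genes. Voom called 0, 1, 1 and 1, beside 674, 1301, 301 and 253 of all 16508 tested genes. Tests on log2 TPM called none of the 6. On log2 of TPM plus 1 they called 210, 401, 21 and 59 of the same 16508 genes. For the 6 genes other than Irs2, the interaction called 0 by edgeR, DESeq2, voom and log2 TPM, and 0 at an unadjusted p under 0.05. Over all 16508 tested genes the interaction called 0 by edgeR, a background of 0%, with 829 genes (5.02%) at an unadjusted p under 0.05 and 1 called by DESeq2.

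In the dDAVP groups single libraries were highest or lowest for most members. Within Ctnnb1 siRNA with dDAVP, replicate 3 was the highest for 5 of 7 members and replicate 2 the lowest for 5, against 39.7% and 34.1% of all tested genes. Within control siRNA with dDAVP, replicate 1 was the highest of its group for 7 of 7 members and replicate 2 the lowest for 7, against 35.6% and 36.8% of all tested genes. In the vehicle groups no library was highest, or lowest, for more than 4 of 7. The share of reads on Malat1 and Neat1 was 0.795%, 0.759% and 1.04% in replicates 1 to 3 of Ctnnb1 siRNA with dDAVP and 0.977%, 0.772% and 0.887% in those of control siRNA with dDAVP. Within each dDAVP group the library highest for most members also had the highest share, and the lowest the lowest. The share of small structural RNAs ran the other way in these libraries. It was 2.51%, 3.09% and 1.62% in replicates 1 to 3 of Ctnnb1 siRNA with dDAVP and 1.69%, 2.52% and 2.07% in those of control siRNA with dDAVP. The part of either share in the members' spread was not tested.

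**Figure D4:**
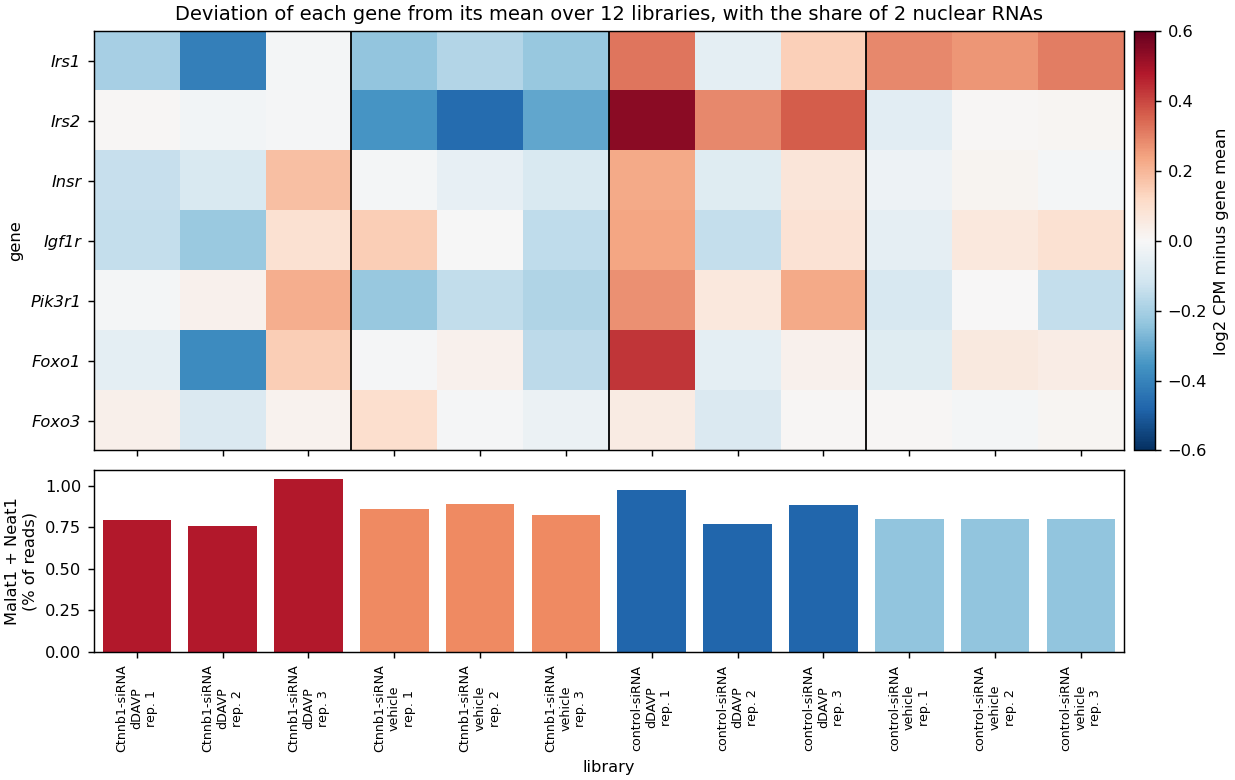
Top, log2 CPM of each member minus its mean over the 12 libraries (colour scale), by library; bottom, share of reads (%) on Malat1 and Neat1 in the same libraries. Within control siRNA with dDAVP, replicate 1 sits highest for 7 of 7 members and replicate 2 lowest.

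The rest of the pathway was described with lists of 98 other genes by role, of which 82 were in the table and 73 were tested. Of the ligands, Igf2 drew 68 reads over all 12 libraries and was not tested; Ins1, Ins2 and Igf1 are not analysed here. Igfbp7, a secreted IGF-binding protein, was the only tested member of its list and averaged 619 TPM. The receptor that clears IGF2, Igf2r, averaged 56.0 TPM. Akt1, which encodes an AKT kinase, averaged 237 TPM. The catalytic PI3K subunit gene Pik3ca averaged 51.6 TPM, and the regulatory subunit genes Pik3r2 and Pik3r3 averaged 64.0 and 36.0 TPM, above Pik3r1. None of these was called in any comparison. By list, 0 of 13 tested substrates and adaptors, 0 of 5 PI3K subunits other than Pik3r1 and 0 of the 2 other FoxO factors, Foxo4 and Foxo6, were called in any comparison. Of all tested genes, 2.78% were called for dDAVP after Ctnnb1 siRNA and 2.83% with control siRNA. For Ctnnb1 siRNA the shares were 0.267% with dDAVP and 0.43% with vehicle. Beside such shares, counts of 0 in lists this small do not show that these genes did not respond. For dDAVP after Ctnnb1 siRNA, 1 of 15 inhibitors was called, against 2.78% of all tested genes. For dDAVP with control siRNA, 1 of 21 genes of the PDK1, AKT and mTOR arm and 1 of 15 FoxO targets were called, against 2.83%. For Ctnnb1 siRNA with dDAVP, 3 of 15 FoxO targets were called, 2 higher and 1 lower, against 0.267%. Of these, the Fbxo32 and Txnip calls were sensitive to single libraries, as given below, and Cited2 was called in 11 of 12 fits without 1 library. The lists were chosen with earlier results known, so no enrichment is read from these counts.

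Across the 73 genes, dDAVP with Ctnnb1 siRNA called 0 higher and 1 lower (background 2.08% higher and 0.697% lower), and dDAVP with control siRNA called 1 higher and 1 lower (1.91% and 0.915%). Ctnnb1 siRNA with dDAVP called 2 higher and 1 lower (0.121% and 0.145%). With vehicle it called 0 by edgeR, DESeq2, voom and log2 TPM, where edgeR called 0.43% of all tested genes. At an unadjusted p under 0.05 it gave 2 genes (2.74%), against 8.09% of all tested genes. The interaction called 0 by the same tools, with 5 genes (6.85%) at an unadjusted p under 0.05, against 5.02% of all tested genes. The median log2 fold changes of the 73, in the same order, were 0.0055, -0.0034, -0.017 and -0.016, against -0.0049, -0.0042, 0.0011 and -0.0029 over all tested genes.

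Ccng2, a cell cycle inhibitor gene and known FoxO target, fell with dDAVP in control-siRNA cells (edgeR adjusted p = 0.00523). It had 125, 133 and 127 CPM with dDAVP and 147, 159.6 and 157 CPM with vehicle, and the groups did not overlap, as for 12% of tested genes in that direction. Its log2 fold change was -0.27 (SE 0.049), and all 22 alternatives called it. After Ctnnb1 siRNA it was -0.17 (adjusted p = 0.0756), not called, though the groups again did not overlap, as for 8.3% of tested genes in that direction. Tbc1d1, a Rab regulator that AKT phosphorylates, rose with dDAVP in control-siRNA cells (log2 fold change 0.20, SE 0.050, edgeR adjusted p = 0.0426), a call kept in 10 of 22 alternatives. Tbc1d1 had 194, 196 and 208 CPM with dDAVP and 178, 168 and 175 CPM with vehicle, without overlap, as for 10.2% of tested genes in that direction. The Tbc1d1 call was lost without any 1 of the 6 control-siRNA libraries (adjusted p = 0.0553 to 0.185). Leaving out replicate 1 of Ctnnb1 siRNA with dDAVP (0.0585) or replicate 2 of that siRNA with vehicle (0.0669) ended this control-siRNA call too. After Ctnnb1 siRNA, the dDAVP difference of Tbc1d1 was 0.15 (adjusted p = 0.157), not called. Its groups did not overlap there either, as for 9.54% of tested genes in that direction. The interaction was called for neither Ccng2 nor Tbc1d1, so their responses were not shown to differ between the siRNA conditions.

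Pik3ip1, an inhibitor of PI3K, fell with dDAVP after Ctnnb1 siRNA, with 18.2, 19.6 and 23.7 CPM against 27.4, 26.3 and 27.7 CPM with vehicle. The groups did not overlap, which held in that direction for 8.3% of tested genes (log2 fold change -0.40, SE 0.088, edgeR adjusted p = 0.0206), and 14 of 22 alternatives kept the call. It was lost without any 1 of the 3 vehicle libraries of Ctnnb1 siRNA (adjusted p = 0.0650 to 0.0859), or without dDAVP replicate 1 (0.0783) or 2 (0.0696). With control siRNA the dDAVP difference was -0.032 (adjusted p = 0.910); the interaction was -0.37 (SE 0.125, adjusted p = 0.918), so the responses were not shown to differ.

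With dDAVP present, Fbxo32, a ubiquitin ligase gene known as a FoxO target in muscle, rose with Ctnnb1 siRNA (log2 fold change 0.37, SE 0.073, edgeR adjusted p = 0.0494). Txnip, the gene of a thioredoxin-binding protein that limits glucose uptake, rose as well (0.30, SE 0.058, adjusted p = 0.0494). Txnip had 654, 656 and 702 CPM with Ctnnb1 siRNA and 528, 565 and 546 CPM with control siRNA. Fbxo32 had 17.3, 16.2 and 18.8 CPM with Ctnnb1 siRNA and 13.8, 13.1 and 13.6 CPM with control siRNA. Neither gene's groups overlapped, which held in that direction for 7.26% of tested genes. Of the 22 alternatives, 4 kept the Fbxo32 call and 8 the Txnip call. Both calls were lost with DESeq2 size factors (edgeR adjusted p = 0.0538 for each), the replicate block, the fit of 2 groups and both TPM fits. The Fbxo32 call was lost without any 1 of the 12 libraries (adjusted p = 0.0508 to 0.208). The Txnip call was kept when replicate 3 of Ctnnb1 siRNA with dDAVP (0.0442), replicate 1 of the same siRNA with vehicle (0.0229) or replicate 2 of control siRNA with dDAVP (0.0488) was left out. Leaving out any other library ended it (0.0568 to 0.220). Cited2, a transcription coregulator gene, fell with Ctnnb1 siRNA (log2 fold change -0.39, SE 0.059, edgeR adjusted p = 0.0125), with 42.4, 40.6 and 40.9 CPM against 56.7, 54.1 and 51.1 CPM with control siRNA. The groups did not overlap, as for 6.02% of tested genes in that direction. The Cited2 call was kept in 20 of 22 alternatives. It was lost without control-siRNA dDAVP replicate 1 (adjusted p = 0.0762) and in the edgeR fit of 2 groups (0.152). With vehicle, the siRNA differences were -0.028 for Fbxo32, 0.069 for Txnip and -0.14 for Cited2. None of these was called (edgeR adjusted p = 0.983, 0.871 and 0.533). The interaction was not called for any of these genes, so the siRNA differences were not shown to depend on dDAVP.

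**Figure D5:**
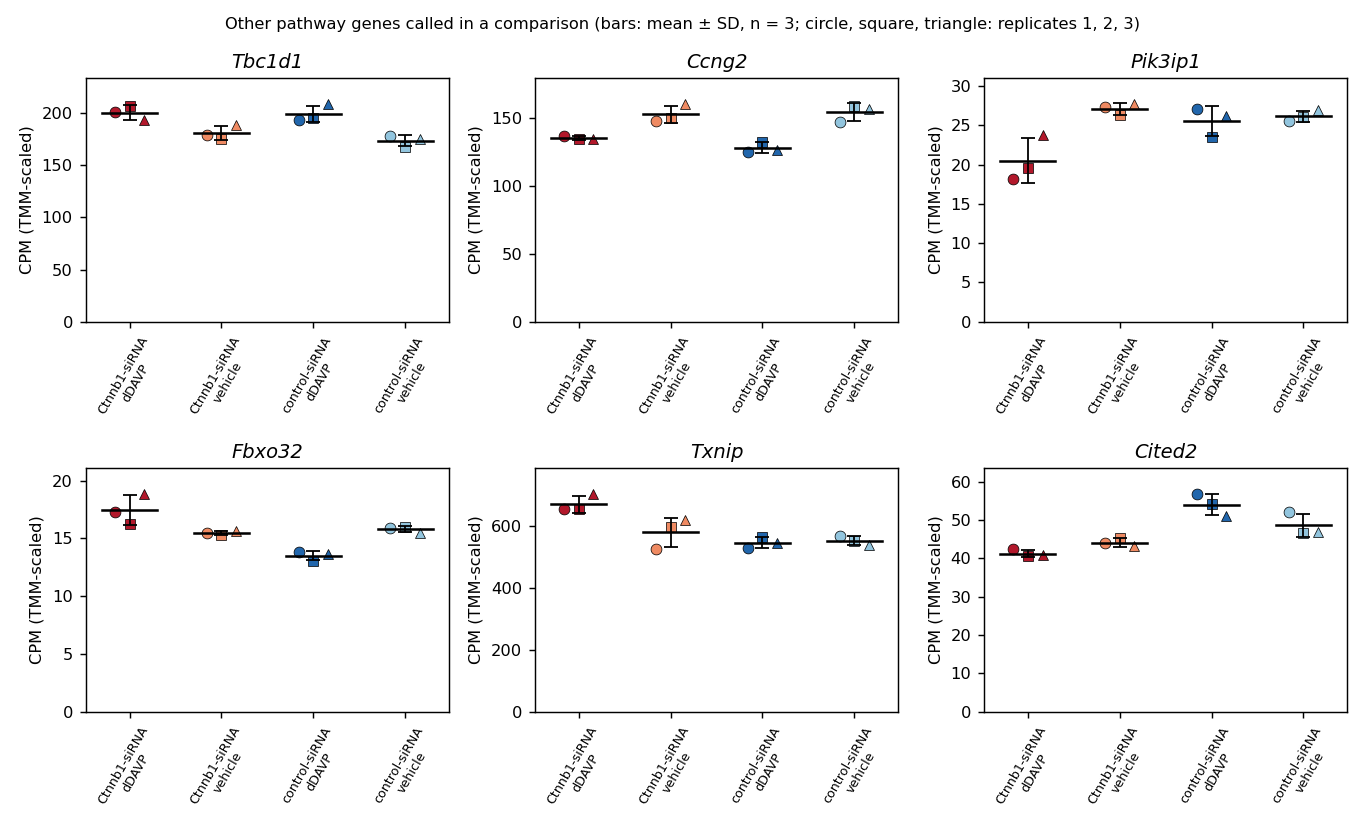
CPM (TMM-scaled, vertical axis from 0) of the 6 other pathway genes called in a comparison, by library, with the mean and SD of 3. Ccng2 averages 128 CPM with control siRNA and dDAVP, against 155 CPM with control siRNA and vehicle, and Cited2 is lower with Ctnnb1 siRNA and dDAVP than with control siRNA and dDAVP.

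Genes whose pattern over the 12 libraries was nearest to that of Irs2 were Gas1, a growth arrest surface protein gene, Maml3, a Notch coactivator gene, Tob1, an antiproliferative protein gene, Ccl28, a chemokine gene, and Il17rd, a gene of a receptor-like membrane protein. Their root mean square differences of centred log2 CPM were 0.0768, 0.114, 0.131, 0.131 and 0.134, against a median of 0.301 over the 11028 genes ranked. Gas1 averaged 9.39 and 7.73 CPM with Ctnnb1 siRNA and dDAVP or vehicle, and 12.7 and 9.05 CPM with control siRNA and dDAVP or vehicle. Nearest to Irs1 were Mfap3l, Pou6f1, Greb1l, Megf9 and Sorbs2, at 0.0875 to 0.0980, against a median of 0.266. All these genes were picked for the smallest differences, so lying below the median was fixed by that choice. They are a description, and nothing more is read from their closeness.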

How the data were processed

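Libraries were stranded and depleted of ribosomal RNA, per the labels' protocols. FastQC, Trimmomatic, HISAT2, StringTie, DESeq2 and the builds GRCm38 and mm10 are named without versions in the submitters' processing notes, and whether counting used the strand is not given in the sources used here. The deposited table holds read counts per gene and TPM, per the file headers.

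The 7 members and the gene lists were chosen with earlier results of these data known. Counts were fitted in R 4.3.3 with edgeR 4.0.16 (filterByExpr, TMM, robust quasi-likelihood, 1 coefficient per group, all 12 libraries), with Benjamini-Hochberg adjustment over 16508 genes and calls at an adjusted p under 0.05. Adjusted p-values are edgeR's where no tool is given. The 95% intervals are the estimate with its SE under a normal approximation. DESeq2 1.42.0, limma 3.58.1 (voom with sample weights, and log2 of TPM plus 1 or 0.1), 2 other scalings, 2 other filters, a fit to the compared groups alone, a block for replicate number and omission of each library in turn were the alternatives. Pathway genes called in any comparison were named. The 5 genes of nearest pattern were named for Irs2 and for each other member called, among genes at 1 CPM or more, leaving out predicted genes, RIKEN clones, small RNAs and pseudogenes. The method was run on simulated counts, with the same spread set for all genes and changes in the control-siRNA dDAVP group only. The simulation held no library that stood apart, so it does not bear on calls close to the threshold. Coordinates and promoters are from RefSeq, and overlaps from GENCODE.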

Additional observations from a re-analysis of the deposited data

How the results depend on the processing

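Counts are called genes. Of the 6 members other than Irs2, DESeq2 and voom each called 1 for dDAVP with control siRNA and DESeq2 1 after Ctnnb1 siRNA, against 0 in edgeR. Voom called 1 for Ctnnb1 siRNA with dDAVP, against 0. For the siRNA with vehicle, the 1 call became 0 with DESeq2 size factors, the replicate block and both log2 TPM fits. Without 1 library the counts ran from 0 to 1 for dDAVP with control siRNA and for the siRNA with either treatment, and stayed at 0 for dDAVP after Ctnnb1 siRNA and the interaction.

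Of the 73 pathway genes, dDAVP with control siRNA called 2, against 4 by DESeq2, 6 by voom, and 1 with no filter, the replicate block or either TPM fit (1 to 4 without 1 library). After Ctnnb1 siRNA it called 1, against 5 by DESeq2, 3 by voom, and 0 in the fit of 2 groups or either TPM fit (0 to 2). The siRNA with dDAVP called 3, against 5 by voom, 1 with size factors, the block or either TPM fit, and 0 in the fit of 2 groups (0 to 4). Calls over all genes also differed by tool. In the same order of comparisons edgeR called 467, 459 and 44, DESeq2 744, 737 and 259, and voom 1301, 674 and 301. Tests on log2 of TPM plus 1 called 401, 210 and 21. No added pathway response is read from the larger counts. The siRNA with vehicle and the interaction called 0 without any 1 library.

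All Irs2 differences kept their sign, and its interaction ran from -0.10 to 0.029 without 1 library. Signs turned only for log2 fold changes that were not called. The largest of these, in the edgeR fit to all 12 libraries, was 0.14, for Foxo1 by dDAVP with control siRNA. For dDAVP after Ctnnb1 siRNA, Irs1 was -0.034 by voom, -0.033 on log2 of TPM plus 1 and -0.048 on TPM plus 0.1, and Insr was -0.040, -0.022 and -0.024. For dDAVP with control siRNA, Igf1r was -0.024 and -0.025 on the TPM scales. For the siRNA with vehicle, Foxo3 was -0.063 and -0.064 on them, and with dDAVP it was 0.0057 with no filter and 4.91e-05 with the block. The Pik3r1 interaction was 0.0046 with no filter. The causes were not tested. Without 1 library, signs also turned as follows. For dDAVP after Ctnnb1 siRNA, Irs1 ran from -0.085 to 0.11, Insr from -0.064 to 0.10, Foxo1 from -0.16 to 0.094 and Foxo3 from -0.058 to 0.0091. For dDAVP with control siRNA, Igf1r ran from -0.058 to 0.13, Foxo1 from -0.027 to 0.23 and Foxo3 from -0.043 to 0.025. For the siRNA with vehicle, Igf1r ran from -0.11 to 0.043 and Foxo3 from -0.018 to 0.049, and with dDAVP Foxo3 from -0.037 to 0.032. The interaction ran from -0.15 to 0.031 for Insr, -0.078 to 0.041 for Pik3r1 and -0.056 to 0.014 for Foxo3.

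No pairing of the libraries by replicate number was seen, which does not show that there was none. Same-numbered libraries had correlations of deviations from -0.086 to 0.072 in 18 pairs, none over 0.1, and 3 of 12 libraries were nearest to their own number. Irs1, the 1 member called, had an adjusted p of 0.0625 under the replicate block for the siRNA with vehicle.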

Other observations

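After the Irs2 and Irs1 start regions had been read, all promoter windows were searched for an E-box (CACGTG) that overlaps or lies within 2 bases of an insulin response element core (CAAAACA), on either strand. The pair stood in 9 of 32544 windows (0.0277%), and 2 of these belonged to Irs1 and Irs2. It was picked because it had been seen in these genes, so the count is a description, with no test, and it says nothing of binding or of the response to dDAVP or Ctnnb1 siRNA.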
